A study of Mus musculus with 108 samples.

Results

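Genes that act in meiosis and in the building of the sperm head and tail were compared among the testes of 6 inbred mouse strains. The set was a list of 53 genes in 4 stages, germ cell and piRNA, meiosis, acrosome and spermatid. Each gene was read through its brightest single-gene probe set by mean log2 signal over all arrays of the series, and 52 of the 53 had such a probe set, out of 18193 genes tested. Tdrd6 had none and was not analysed here. The choice of a probe set used its signal over the whole series and no difference between strains.

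The study measured 6 tissues of AKR/J, A/J, C3HeB/FeJ, C57BL/6J, DBA2/J and 129S2 mice on Affymetrix expression arrays. All animals were males of 11 to 14 weeks, with 3 animals per strain and tissue, and the 18 testis arrays carry the comparisons here. None of the strains had been treated or engineered. The 129S2 mice came from another supplier than the rest, so strain and supplier cannot be told apart for 129S2. The titles name single animals, although the labelling text speaks of pools, and p-values therefore measure the spread between these 3 samples of a strain.

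Sperm arise from spermatogonia, which enter meiosis as spermatocytes. There the SPO11 enzyme cuts the DNA and recombination repairs the breaks. The synaptonemal complex joins homologous chromosomes, and meiotic cohesin holds sister chromatids together. The haploid spermatids that follow form the acrosome, an enzyme-filled cap that serves in fertilisation, replace histones first by transition proteins and then by protamines, and grow a tail. piRNAs, small RNAs bound by PIWI proteins, silence transposons in the same cells.

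The whole testis was read, so fewer cells of a type and less RNA per cell cannot be told apart. Array medians lay between 5.74 and 5.78 log2 units in testis. No pair of replicate arrays shared more than 0.0665% identical values. The labelled tissue was checked on the genes themselves. In testis, 51 of the 52 genes lay above the 50th percentile of all genes tested and the median percentile was 96.6, against medians of 21.3 in liver, 18.6 in heart, 15.6 in kidney, 15.0 in lung and 14.5 in brain. The exception was Crem, whose probe set lay at percentile 34.3 in testis.

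Over the 6 strains, 20 of the 52 genes (38.5%) passed the moderated F test of limma at a Benjamini-Hochberg adjusted p of 0.05, beside 40.5% of all genes tested. The share was thus close to the background. The differences were also small. The median range of the 6 strain means was 0.21 log2 units for the 52 genes and 0.24 for all genes. No member reached 1 log2 unit, while 744 genes of the whole table did so and passed the F test. A range of at least 0.5 together with a passing test was found in 7 members, or 13.5%, beside 16.2% of all genes.

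The shares differed by stage, although no test compared the stages. The F test was passed by 5 of 8 germ cell and piRNA genes (62.5%), 8 of 15 meiosis genes (53.3%), 4 of 9 acrosome genes (44.4%) and 3 of 20 spermatid genes (15.0%). Median ranges were 0.26, 0.30, 0.21 and 0.15 log2 units in the same order. In the lists of other genes of these stages, given below, 31.25%, 59.1%, 29.2% and 41.0% passed, so the order of shares did not recur. The spermatid count was 8 with an intensity trend and a robust prior, 6 with a floor of 6 log2 units and 5 with quantile normalization or the mean of probe sets. The acrosome count was 2 with all tissues fitted together or without members that could belong to another stage. Signal strength moved with stage. Of the 17 members at a mean testis signal of 12 or more, 3 passed, beside 30.4% of the 342 genes at that signal, and below 12 the count was 17 of 35 (48.6%), beside 40.7% of all genes there. The highest value on any testis array was 14.73, and 6 spermatid genes lay near it. The part of signal strength in the counts by stage was not tested.

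**Figure D1:**
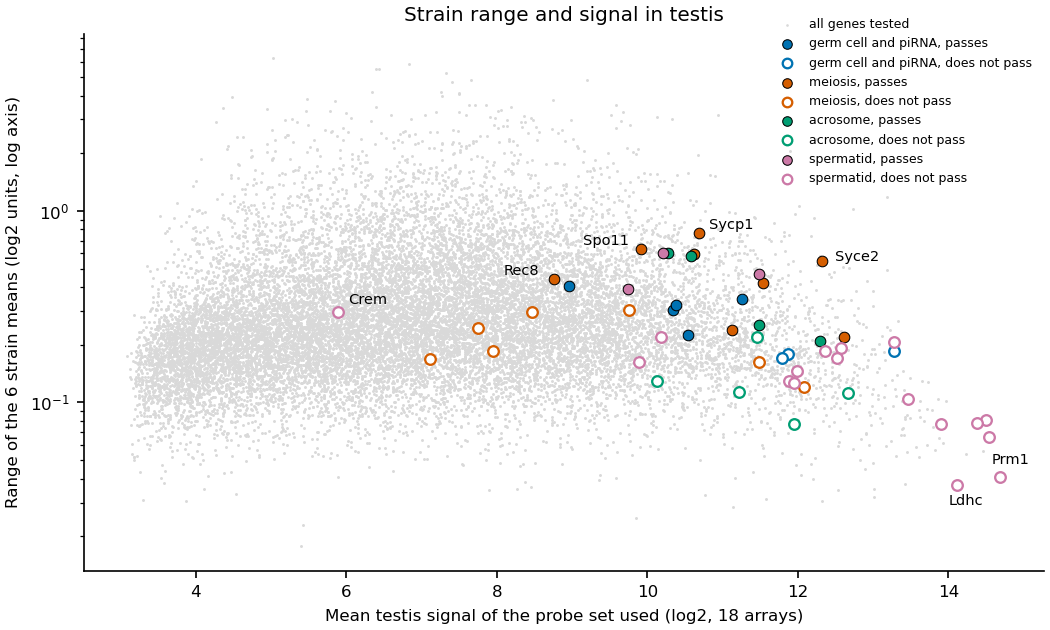
Range of the 6 strain means in testis (log2 units, log axis) against the mean signal of the probe set (log2, 18 arrays) for all 18193 genes tested in grey and for the 52 members in colour by stage. Filled points passed the F test. Sycp1 has the widest range among members, 0.77, and the protamine gene Prm1, at 14.69, one of the narrowest, 0.04.

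**Figure D2:**
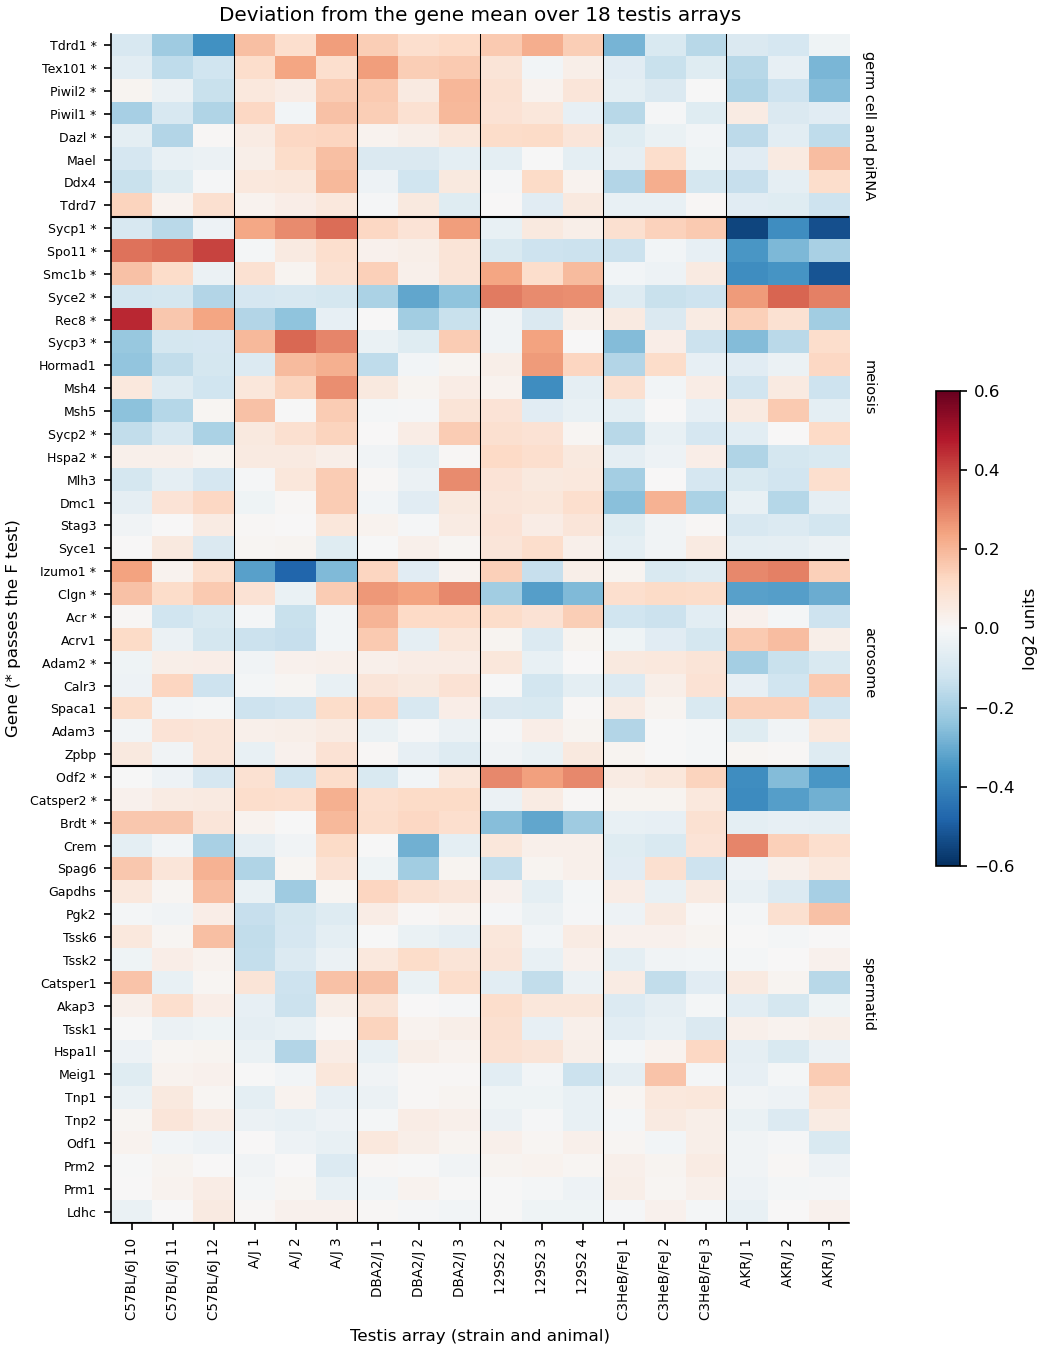
Deviation of each of the 52 genes (rows, by stage) from its mean over the 18 testis arrays (columns, 3 animals per strain), in log2 units with colours limited to 0.6 either way. Asterisks mark the 20 genes that passed the F test. The AKR/J columns are blue for Sycp1, Smc1b, Spo11, Clgn, Odf2 and Catsper2 and red for Syce2 and Izumo1, and the lower rows of the spermatid block are nearly white.

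Promoter sequence is shown for 4 genes, chosen after their values and matches were seen. Smc1b and Sycp1 are the meiosis genes with the largest AKR/J differences, and Prm1 and Tnp1 are a protamine and a transition protein gene that carry a searched motif. Prm2 and Tnp2, of the same families, have windows without it. The narrow ranges of Prm1 and Tnp1 were read at the top of the array's scale. The sequences are the 250 bases before the annotated start in RefSeq on GRCm38.p6, and all 4 genes lie on the minus strand. They are Prm1 at chr16:10796824-10797073, Tnp1 at chr1:73015900-73016149, Smc1b at chr15:85131958-85132207 and Sycp1 at chr3:102936101-102936350. Capitals mark a match to TGANNTCA, a loose form of the cAMP response element to which CREM binds, in Prm1 and Tnp1, and to TTCCCGC, the core of the E2F site, in Smc1b.
Prm1: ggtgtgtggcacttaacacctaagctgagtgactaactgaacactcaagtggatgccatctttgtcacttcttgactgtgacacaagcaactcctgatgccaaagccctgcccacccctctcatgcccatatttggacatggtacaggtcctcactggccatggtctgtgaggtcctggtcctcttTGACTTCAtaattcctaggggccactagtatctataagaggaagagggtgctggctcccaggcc
Tnp1: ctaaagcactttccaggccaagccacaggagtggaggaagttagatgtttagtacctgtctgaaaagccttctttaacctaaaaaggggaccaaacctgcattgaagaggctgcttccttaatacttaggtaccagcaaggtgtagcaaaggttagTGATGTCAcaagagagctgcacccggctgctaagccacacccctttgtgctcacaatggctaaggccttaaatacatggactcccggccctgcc
Smc1b: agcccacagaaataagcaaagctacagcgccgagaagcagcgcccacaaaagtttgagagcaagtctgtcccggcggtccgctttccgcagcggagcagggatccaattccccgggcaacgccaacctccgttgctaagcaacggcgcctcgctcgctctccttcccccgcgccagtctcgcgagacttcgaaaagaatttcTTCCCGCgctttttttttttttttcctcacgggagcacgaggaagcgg
Sycp1: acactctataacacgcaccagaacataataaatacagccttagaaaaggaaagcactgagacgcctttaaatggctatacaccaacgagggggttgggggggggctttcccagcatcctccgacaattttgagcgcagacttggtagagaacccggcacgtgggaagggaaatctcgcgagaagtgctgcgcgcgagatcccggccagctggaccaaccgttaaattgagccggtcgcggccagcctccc

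The Prm1 match, TGACTTCA, began 64 bases before the start and the Tnp1 match, TGATGTCA, 94 bases before it. In Smc1b, TTCCCGC began 48 bases before the start. The Sycp1 window held neither motif, which says only that these letters are not in it. Windows were found for 43 of the 52 genes, 59 windows in all. No window was found for Crem, Acr, Catsper1, Adam3, Spo11, Odf1, Piwil2, Clgn and Adam2. Searched on both strands, TGANNTCA was in 19 of the 59 windows (32.2%) and in 11.9% of the 32851 windows of all genes. TTCCCGC was in 11 of 59 (18.6%) and in 3.82% of all windows. The full palindrome TGACGTCA, which is contained in TGANNTCA, was in the Izumo1 window alone among members and in 1.55% of all windows. These are counts of letters, several windows belong to 1 gene, and no enrichment was tested.

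The 15 genes with TGANNTCA came from every stage. They were Akap3, Calr3, Gapdhs, Hormad1, Hspa1l, Izumo1, Meig1, Pgk2, Prm1, Spag6, Syce2, Tex101, Tnp1, Tssk1 and Tssk2. Of these 15, Izumo1, Syce2 and Tex101 passed the F test, beside 38.5% of all members and 40.5% of all genes tested. The 8 genes with TTCCCGC were Calr3, Ddx4, Hormad1, Msh5, Smc1b, Spaca1, Syce2 and Sycp3, of which Smc1b, Syce2 and Sycp3 passed.

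Among germ cell and piRNA genes, Tdrd1, Tex101, Piwil2, Piwil1 and Dazl differed among strains, and Ddx4, Tdrd7 and Mael did not pass. TDRD1 is a Tudor-domain protein of the germ granule that binds PIWI proteins. Its 3 arrays read 8.87, 8.75 and 8.60 log2 units in C57BL/6J, 8.68, 8.87 and 8.80 in C3HeB/FeJ and 8.88, 8.86 and 8.94 in AKR/J. They read 9.15, 9.07 and 9.22 in A/J, 9.11, 9.07 and 9.09 in DBA2/J and 9.12, 9.18 and 9.11 in 129S2. The strains thus fell into a lower and a higher set of 3 that did not overlap. The A/J mean exceeded the C57BL/6J mean by 0.40 ± 0.07 (SE), or 1.32-fold, with a limma F test adjusted p of 9.1e-05.

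Tex101, which encodes a surface glycoprotein of germ cells, read 11.51, 11.41 and 11.42 in DBA2/J, 11.37, 11.50 and 11.36 in A/J and 11.34, 11.25 and 11.30 in 129S2. It read 11.20, 11.11 and 11.14 in C57BL/6J, 11.20, 11.13 and 11.19 in C3HeB/FeJ and 11.10, 11.21 and 10.99 in AKR/J. The latter 3 strains overlapped each other and lay below the other 3. DBA2/J exceeded AKR/J by 0.35 ± 0.06 (SE; limma F test adjusted p = 0.00044).

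The PIWI genes Piwil1 (MIWI) and Piwil2 (MILI) were both highest in DBA2/J and differed in their lowest strain. Piwil2 read 10.54, 10.44 and 10.59 in DBA2/J, 10.45, 10.43 and 10.54 in A/J, 10.48, 10.41 and 10.46 in 129S2 and 10.40, 10.35 and 10.25 in C57BL/6J. It read 10.33, 10.30 and 10.38 in C3HeB/FeJ and 10.21, 10.26 and 10.13 in AKR/J, where 1 array overlapped the lowest C57BL/6J array. The range was 0.32 ± 0.06 (SE; limma F test adjusted p = 0.0018).

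Piwil1 read 10.49, 10.43 and 10.53 in DBA2/J, 10.46, 10.32 and 10.52 in A/J and 10.42, 10.40 and 10.29 in 129S2. It read 10.39, 10.25 and 10.27 in AKR/J, 10.17, 10.33 and 10.26 in C3HeB/FeJ and 10.14, 10.24 and 10.16 in C57BL/6J. C57BL/6J and DBA2/J, the ends of the order, did not overlap and were 0.30 ± 0.06 apart (SE; limma F test adjusted p = 0.0076), while neighbours in the order overlapped. Dazl, an RNA-binding translation factor of germ cells, had a range of 0.22, from A/J at 10.64 to AKR/J at 10.41 (limma F test adjusted p = 0.0064). Its other probe set did not pass (range 0.23), and with all tissues fitted together the call ended (limma adjusted p = 0.466).

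The genes that did not pass in this stage had ranges of 0.18 for Ddx4, the germ cell RNA helicase, 0.19 for Mael, a piRNA pathway protein, and 0.17 for Tdrd7. From a list of 17 other germ cell and piRNA genes, 5 of the 16 measured (31.25%; background 40.5%) passed. The widest were Pld6, a mitochondrial phospholipase family protein of piRNA production, and Tex19.1, which restrains retrotransposons. Pld6 ranged from 10.72 ± 0.11 (SD, n = 3) in A/J to 9.91 ± 0.10 in AKR/J, where all arrays read 9.84 to 10.02 and the next lowest array of any strain 10.23 (limma F test adjusted p = 2.6e-07). Tex19.1 ranged from 7.87 in A/J to 7.50 in AKR/J (limma F test adjusted p = 0.003).

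Meiosis genes held the widest range. Sycp1, which encodes the transverse filament of the synaptonemal complex, read 10.13, 10.31 and 10.16 in AKR/J. It read 10.59, 10.53 and 10.66 in C57BL/6J, 10.64, 10.74 and 10.72 in 129S2 and 10.78, 10.82 and 10.84 in C3HeB/FeJ. It read 10.81, 10.77 and 10.94 in DBA2/J and 10.92, 10.97 and 11.02 in A/J. Every AKR/J array thus lay below every other array. The A/J mean was 1.70-fold the AKR/J mean, a difference of 0.77 ± 0.06 (SE; limma F test adjusted p = 2.7e-07), and AKR/J fell by 0.58 ± 0.05 (SE) against the mean of the other 5 strains (limma adjusted p = 7.7e-08).

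Smc1b, the meiosis-specific cohesin subunit SMC1 beta, had the same lowest strain. Its AKR/J arrays read 10.25, 10.27 and 10.10. The other strains read 10.79, 10.73 and 10.58 (C57BL/6J), 10.71, 10.64 and 10.71 (A/J), 10.76, 10.65 and 10.70 (DBA2/J), 10.86, 10.73 and 10.81 (129S2) and 10.61, 10.59 and 10.68 (C3HeB/FeJ). Those 15 arrays lay between 10.58 and 10.86, and AKR/J stood below them without overlap. The 129S2 mean exceeded the AKR/J mean by 0.59 ± 0.06 (SE), or 1.51-fold (limma F test adjusted p = 8.7e-06). Stag3, another meiotic cohesin subunit, did not pass the F test (range 0.16, adjusted p = 0.086) and fell by 0.11 in AKR/J against the mean of the other strains (limma contrast, adjusted p = 0.025).

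Rec8, the kleisin subunit of the same complex, was highest in C57BL/6J instead. Its arrays read 9.21, 8.91 and 8.99 there, 8.90, 8.85 and 8.55 in AKR/J and 8.81, 8.67 and 8.80 in C3HeB/FeJ. They read 8.73, 8.67 and 8.78 in 129S2, 8.76, 8.55 and 8.62 in DBA2/J and 8.58, 8.51 and 8.70 in A/J. C57BL/6J lay above every other array, although its lowest array, 8.91, was next to the highest of AKR/J, 8.90. The range was 0.44 ± 0.09 (SE; limma F test adjusted p = 0.012), and the call ended without C57BL/6J animal 10, its highest array (limma adjusted p = 0.0729).

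Spo11, which encodes the enzyme that makes meiotic DNA breaks, was high in C57BL/6J and low in AKR/J. It read 10.24, 10.26 and 10.32 in C57BL/6J, 9.94, 9.95 and 9.99 in DBA2/J and 9.90, 9.97 and 10.02 in A/J. It read 9.79, 9.90 and 9.86 in C3HeB/FeJ, 9.82, 9.79 and 9.79 in 129S2 and 9.56, 9.64 and 9.72 in AKR/J. C57BL/6J and AKR/J overlapped no other strain, and the 12 arrays between them lay from 9.79 to 10.02. C57BL/6J was 0.63 ± 0.05 (SE) above AKR/J, or 1.55-fold (limma F test adjusted p = 9.0e-07).

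Syce2, a central element protein of the synaptonemal complex, was the meiosis gene with AKR/J high. It read 12.58, 12.67 and 12.63 in AKR/J and 12.64, 12.61 and 12.60 in 129S2. It read 12.21, 12.22 and 12.15 in C57BL/6J, 12.25, 12.19 and 12.20 in C3HeB/FeJ, 12.23, 12.23 and 12.22 in A/J and 12.14, 12.02 and 12.08 in DBA2/J. AKR/J and 129S2 formed 1 level, well above the other 4 strains, with no overlap. The range was 0.55 ± 0.05 (SE; limma F test adjusted p = 5.3e-08). Syce2, read through its only single-gene probe set, also passed the F test in brain, kidney, liver and lung.

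Sycp3 and Sycp2, the axial element genes, were both highest in A/J and lowest in C57BL/6J. Their ranges were 0.42 (limma F test adjusted p = 0.014) and 0.24 (limma F test adjusted p = 0.011). Without A/J animal 2 or animal 3 the Sycp3 call ended (limma adjusted p = 0.063 and 0.05). Both calls ended with all tissues fitted together (limma adjusted p = 0.31 for Sycp3 and 0.176 for Sycp2). Hspa2, a chaperone of spermatocytes, ranged by 0.22 from 129S2 to AKR/J (limma F test adjusted p = 0.016), and its call ended without AKR/J animal 1 (limma adjusted p = 0.0632) or with all tissues fitted together (limma adjusted p = 0.492). The 7 meiosis genes that did not pass were Syce1, Stag3, Dmc1, Hormad1, Mlh3, Msh4 and Msh5, with ranges of 0.12 to 0.30. Dmc1, the meiotic strand exchange protein, had a range of 0.17, and without C3HeB/FeJ animal 2 its adjusted p was 0.0218. The second probe set of Msh5, a gene of the crossover pathway, ranged by 0.58 from A/J to C57BL/6J and passed (limma adjusted p per probe set = 5.3e-05), against 0.24 in the same direction for the set used.

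**Figure D3:**
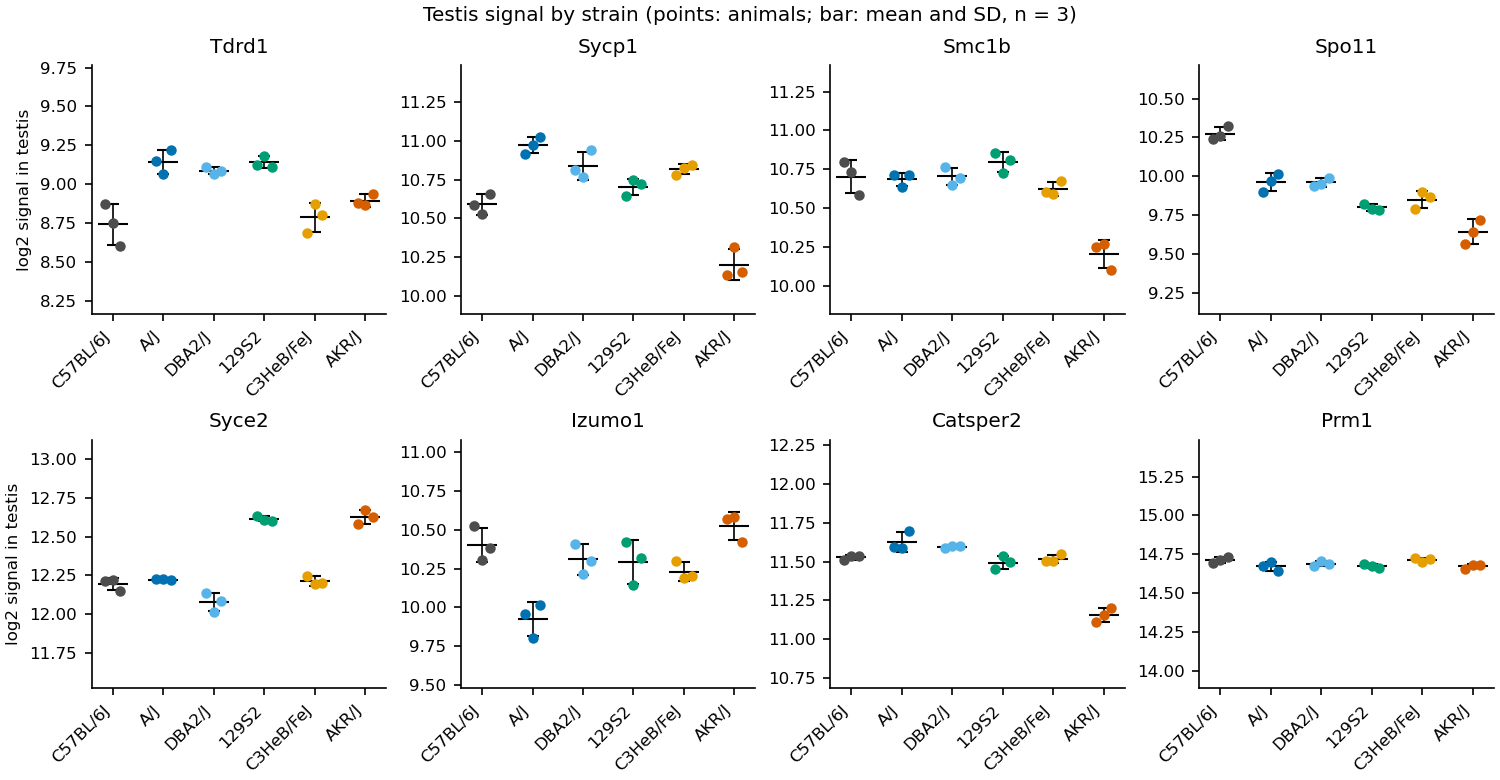
Testis signal (log2) of 8 genes in each animal (points) with the strain mean and SD (bars, n = 3). Every panel has the same height in log2 units. AKR/J lies apart below the other strains in Sycp1, Smc1b, Spo11 and Catsper2 and with 129S2 above them in Syce2, A/J lies below in Izumo1, and the 18 Prm1 values stay between 14.64 and 14.73.

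From a list of 28 other meiosis genes, 13 of the 22 measured (59.1%; background 40.5%) passed. Of these, Meiob, which encodes a protein that binds single-stranded DNA during recombination, had the widest range. It read 7.41, 7.45 and 7.46 in C57BL/6J and 8.10 to 8.47 in the other 15 arrays (range 0.95 ± 0.07, SE; limma F test adjusted p = 1.6e-08). Mei1, needed for meiotic breaks, went the other way, with 6.44, 6.60 and 6.44 in C57BL/6J, 6.17 to 6.21 in 129S2 and 5.59 to 5.90 elsewhere (limma F test adjusted p = 1.1e-07). Against the mean of the other 5 strains, 129S2 was higher for 11 of the 22, beside 9.29% of all genes, and lower for none. The 11 were Syce3, Tex12, Mei1, Mei4, Meiob, Trip13, Ythdc2, Terb2, Majin, Mns1 and Spdya. Among the 15 meiosis members the same contrast called 3 higher, Smc1b, Syce2 and Hspa2, and 1 lower, Spo11.

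Of the acrosome genes, Izumo1, Clgn, Acr and Adam2 passed. IZUMO1 is the sperm protein that binds its receptor JUNO on the egg. Izumo1 read 9.96, 9.81 and 10.02 in A/J and 10.57, 10.58 and 10.42 in AKR/J. The other strains read 10.52, 10.30 and 10.38 (C57BL/6J), 10.41, 10.21 and 10.30 (DBA2/J), 10.42, 10.14 and 10.32 (129S2) and 10.30, 10.19 and 10.20 (C3HeB/FeJ). A/J lay below every other array, while AKR/J overlapped C57BL/6J and, by a small margin, 129S2. AKR/J exceeded A/J by 0.60 ± 0.08 (SE), or 1.52-fold (limma F test adjusted p = 0.00028).

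Clgn encodes calmegin, a chaperone that folds sperm surface proteins. It read 10.84, 10.82 and 10.87 in DBA2/J, 10.76, 10.69 and 10.74 in C57BL/6J, 10.68, 10.70 and 10.69 in C3HeB/FeJ and 10.67, 10.54 and 10.73 in A/J. It read 10.37, 10.25 and 10.32 in 129S2 and 10.25, 10.25 and 10.28 in AKR/J. 129S2 and AKR/J overlapped each other and no other strain. The range was 0.58 ± 0.05 (SE; limma F test adjusted p = 2.1e-07).

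Acr, the gene of the acrosomal protease acrosin, read 11.68, 11.60 and 11.60 in DBA2/J and 11.59, 11.57 and 11.63 in 129S2. It read 11.50, 11.47 and 11.35 in AKR/J, 11.47, 11.34 and 11.46 in A/J, 11.49, 11.36 and 11.39 in C57BL/6J and 11.36, 11.35 and 11.41 in C3HeB/FeJ. DBA2/J and 129S2 were above the other 4 strains without overlap, and those 4 overlapped. The range was 0.25 ± 0.06 (SE; limma F test adjusted p = 0.0047), and the call ended with all tissues fitted together (limma adjusted p = 0.242).

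Adam2, the fertilin beta gene, whose protein calmegin helps to fold, was low in AKR/J alone, at 12.10, 12.16 and 12.21. The other strains read 12.27, 12.33 and 12.34 (C57BL/6J), 12.28, 12.33 and 12.33 (A/J), 12.33, 12.34 and 12.34 (DBA2/J), 12.36, 12.25 and 12.30 (129S2) and 12.36, 12.36 and 12.38 (C3HeB/FeJ). AKR/J did not overlap them. The range was 0.21 ± 0.05 (SE; limma F test adjusted p = 0.022), and the call ended without AKR/J animal 1 or animal 2 (limma adjusted p = 0.129 and 0.0764) or with all tissues fitted together (limma adjusted p = 0.329).

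Acrv1, Spaca1, Zpbp, Adam3 and Calr3 did not pass, with ranges of 0.22, 0.11, 0.08, 0.11 and 0.13. From a list of 25 other genes of the acrosome and of sperm-egg contact, 7 of the 24 measured (29.2%; background 40.5%) passed. Spaca7, an acrosomal protein gene, ranged from 10.33 in C57BL/6J to 9.84 in 129S2 (limma F test adjusted p = 8.1e-05). Cylc1, which encodes a cylicin of the sperm head skeleton, ranged from 6.70 ± 0.28 (SD, n = 3) in AKR/J to 6.14 ± 0.15 in C3HeB/FeJ (limma F test adjusted p = 0.035).

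Of 20 spermatid genes, Odf2, Catsper2 and Brdt passed. CATSPER2 is a pore subunit of the sperm calcium channel. Catsper2 read 11.11, 11.16 and 11.20 in AKR/J, 11.59, 11.59 and 11.70 in A/J and 11.51, 11.54 and 11.54 in C57BL/6J. It read 11.59, 11.60 and 11.60 in DBA2/J, 11.45, 11.53 and 11.49 in 129S2 and 11.50, 11.50 and 11.55 in C3HeB/FeJ. AKR/J alone stood apart, below all others. The range was 0.47 ± 0.05 (SE; limma F test adjusted p = 4.1e-06). Catsper1, another pore subunit, had a range of 0.16 and did not pass.

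Odf2 encodes a protein of the outer dense fibres of the sperm tail. Its AKR/J arrays read 9.84, 9.95 and 9.86 and its 129S2 arrays 10.50, 10.46 and 10.50. Between them were 10.21, 10.18 and 10.11 (C57BL/6J), 10.30, 10.09 and 10.32 (A/J), 10.12, 10.20 and 10.28 (DBA2/J) and 10.26, 10.28 and 10.35 (C3HeB/FeJ). Both extreme strains were free of overlap. The range was 0.60 ± 0.06 (SE; limma F test adjusted p = 2.1e-05), but it belonged to 1 of 5 probe sets.

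Brdt, a bromodomain protein of spermatocytes and spermatids, read 9.49, 9.43 and 9.53 in 129S2 and 9.91, 9.91 and 9.82 in C57BL/6J. The remaining arrays read 9.76, 9.74 and 9.94 (A/J), 9.85, 9.87 and 9.84 (DBA2/J), 9.70, 9.69 and 9.84 (C3HeB/FeJ) and 9.69, 9.70 and 9.69 (AKR/J). 129S2 lay below all others, by a range of 0.39 ± 0.06 (SE; limma F test adjusted p = 0.00028). In a brighter probe set of Brdt 129S2 was the highest strain instead.

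The packaging proteins of sperm DNA showed no strain difference past the test. All 18 Prm1 arrays read between 14.64 and 14.73. The ranges of strain means were 0.04 for Prm1, 0.07 for Prm2, 0.08 for Tnp1 and 0.08 for Tnp2. Odf1, at 13.90, and Ldhc, the sperm lactate dehydrogenase, at 14.11, had ranges of 0.08 and 0.04. These 6 genes gave signals near the top of the array's scale, and whether the signal still followed the amount of RNA there was not tested. Probe sets whose names end in x_at, which the maker marks as sharing probes with other transcripts, include all 3 of Prm1.

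The other 11 spermatid genes had ranges of 0.10 to 0.29 and did not pass. They were the sperm glycolysis genes Gapdhs and Pgk2 (0.21 and 0.19), the kinases Tssk1, Tssk2 and Tssk6 (0.13, 0.17 and 0.19), Akap3 (0.15), Catsper1 (0.16), Hspa1l (0.13), Spag6 (0.22), Meig1 (0.10) and Crem (0.29, limma F test adjusted p = 0.052). The related gene Spag6l, a near copy of Spag6, had a range of 0.17 (limma F test adjusted p = 0.199). From a list of 44 other spermatid genes, 16 of the 39 measured (41.0%; background 40.5%) passed. Aldoart1, a sperm aldolase retrogene close in sequence to its parent gene, was highest in AKR/J at 11.00 ± 0.18 (SD, n = 3) and lowest in 129S2 at 10.37 ± 0.09 (limma F test adjusted p = 0.00023). Fsip1, a fibrous sheath interacting protein, was highest in C57BL/6J at 9.46 ± 0.13 and lowest in AKR/J at 8.86 ± 0.14 (limma F test adjusted p = 9.3e-05).

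Each strain was then set against the mean of the other 5, contrasts that share arrays. AKR/J had the most calls among members. It was lower for 12 (23.1%; background 11.1% of all genes) and higher for 4 (background 13.1%). The lower genes were Sycp1, Smc1b, Spo11, Stag3 and Hspa2 of meiosis, Dazl, Tex101 and Piwil2 of the germ cell stage, Clgn and Adam2 of the acrosome, and Odf2 and Catsper2 of spermatids. The higher genes were Syce2, Izumo1, Acrv1 and Crem. Of these, Acrv1 and Crem did not pass the F test, and the Crem call came from a set at 5.89. In the Crem sets at 10.84 and 7.12 AKR/J differed by -0.03 and -0.04 (limma adjusted p per probe set = 0.745 and 0.697). AKR/J was the lowest strain for 20 of the 52 genes, passing or not, and for 22.8% of all genes. That count of members was 25 with median centring and 16 with quantile normalization, where the calls were 13 lower and 3 higher. With each array centred on its median the calls were 14 lower and 3 higher, and over all genes the balance turned from 2382 higher and 2021 lower to 2010 and 2968.

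DBA2/J was higher for 7 members (background 7.43%) and lower for 1 (background 9.01%). The 7 were Tex101, Piwil1, Piwil2, Sycp1, Acr, Clgn and Catsper2, with Clgn largest at 0.32 ± 0.04 (SE; limma adjusted p = 2.4e-05), a difference that did not pass in its other 2 probe sets. The lower gene was Syce2, which fell by 0.30 ± 0.04 (SE; limma adjusted p = 1.5e-05). Without DBA2/J animal 1 or animal 3 the count of calls went from 8 to 4, and with all tissues fitted together to 3. 129S2 was higher for 6 (background 9.29%) and lower for 3 (background 7.77%), with the largest differences in Syce2, 0.35 ± 0.04 (SE; limma adjusted p = 1.9e-06), and Odf2, 0.33 ± 0.05 (SE; limma adjusted p = 9.4e-05). The lower genes were Spo11, Clgn and Brdt. The Odf2 difference did not pass in the other Odf2 probe sets, nor did the Clgn difference in the other 2 Clgn sets. In the Brdt set at 11.34 129S2 was higher by 0.67 (limma adjusted p per probe set = 6.1e-10). In the third Brdt set it differed by -0.05 (limma adjusted p per probe set = 0.758). The 129S2 count of 9 went to 5 without animal 3 or with all tissues fitted together.

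A/J was higher for 5 members (background 7.05%) and lower for 4 (background 6.62%). The higher genes were Tdrd1, Tex101, Sycp1, Sycp3 and Catsper2. The lower were Izumo1, Syce2, Pgk2 and Tssk6, of which Pgk2 and Tssk6 did not pass the F test. In the dimmer Catsper2 probe set A/J differed by -0.22 instead (limma adjusted p per probe set = 0.017). Izumo1 fell by 0.43 ± 0.06 (SE; limma adjusted p = 0.00013) and Sycp1 was 0.34 ± 0.05 higher (SE; limma adjusted p = 7.5e-05). The 9 calls went to 4 without animal 2 or animal 3, to 14 with the intensity trend and to 2 with all tissues fitted together. C57BL/6J was higher for 4 (background 9.3%), Spo11 by 0.43 ± 0.04 (SE; limma adjusted p = 4.6e-07), Rec8 by 0.34 ± 0.07 (SE; limma adjusted p = 0.0022), Clgn and Brdt, and lower for 4 (background 11.9%), Tdrd1, Piwil1, Sycp2 and Syce2. The Brdt direction held for the set used only. In the other Brdt probe sets C57BL/6J differed from the other strains by -0.29 and -0.53 (limma adjusted p per probe set = 3.4e-05 and 2.1e-05). With median centring C57BL/6J had 7 higher and 4 lower, and its 8 calls became 15 with the intensity trend, 13 with the floor and 14 with the mean of probe sets. C3HeB/FeJ had the fewest calls, 1 higher (background 5.01%), Sycp1 by 0.16 ± 0.05 (SE; limma adjusted p = 0.049), and 2 lower (background 5.36%), Tdrd1, which fell by 0.22 ± 0.05 (SE; limma adjusted p = 0.010), and Syce2. With median centring it had 2 and 2, and its 3 calls went to 1 without animal 1 or animal 3, to 5 or 6 with the floor, the brightest set in testis or the intensity trend, and to 0 with all tissues fitted together.

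Markers of some other testis cells also moved with AKR/J. Over all genes tested, AKR/J was called higher for 13.1% and lower for 11.1%. The 5 Leydig cell markers, genes of steroid hormone synthesis, all passed the F test. All were called higher in AKR/J against the mean of the other 5 strains. AKR/J was the highest strain for 4 of them and A/J for 1. Their mean lay between 10.60 and 10.69 in AKR/J and between 9.54 and 10.04 elsewhere. Hsd17b3, the testicular enzyme of testosterone synthesis, read 10.40 in AKR/J and 8.60 in C57BL/6J. The macrophage mean was 7.46 to 7.62 in AKR/J and at most 7.26 elsewhere, with 7 of 8 markers called higher. Of 7 smooth muscle markers 4 were called higher in AKR/J, whose animal 2 stood out at a mean of 9.58. Of 13 Sertoli cell markers 5 were called higher. Of 11 spermatogonia markers 2 were called higher (18.2%) and 1 lower (9.09%), close to the shares over all genes. Their median AKR/J difference was 0.0025, and AKR/J was the highest strain for 2 of them and the lowest for 2. Among them Kit read 7.68 in AKR/J against 6.49 to 7.11 in the other strains. Endothelial markers were called in none. Insl3 and Lhcgr, further Leydig cell genes, were not analysed here.

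The part of these cell types in the low AKR/J values was not tested. Without the 3 AKR/J arrays 16 of 52 members passed, beside 33.7% of all genes. The range of strain means was 0.19 for the germ cell stage, 0.16 for meiosis, 0.11 for the acrosome and 0.06 for spermatids, against 1.01 for Leydig cells, 0.68 for macrophages, 0.59 for smooth muscle, 0.39 for Sertoli cells, 0.20 for spermatogonia, 0.15 for endothelium and 0.14 for red cells. The Sertoli list included Cst9, whose strain means were 8.56 to 8.77 in A/J, DBA2/J and C3HeB/FeJ and 11.47 to 11.64 in the rest. Means of epididymis markers (range 0.42) and adipocyte markers (range 0.76) rested on few genes past the F test, 1 of 6 and 0 of 4.

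**Figure D4:**
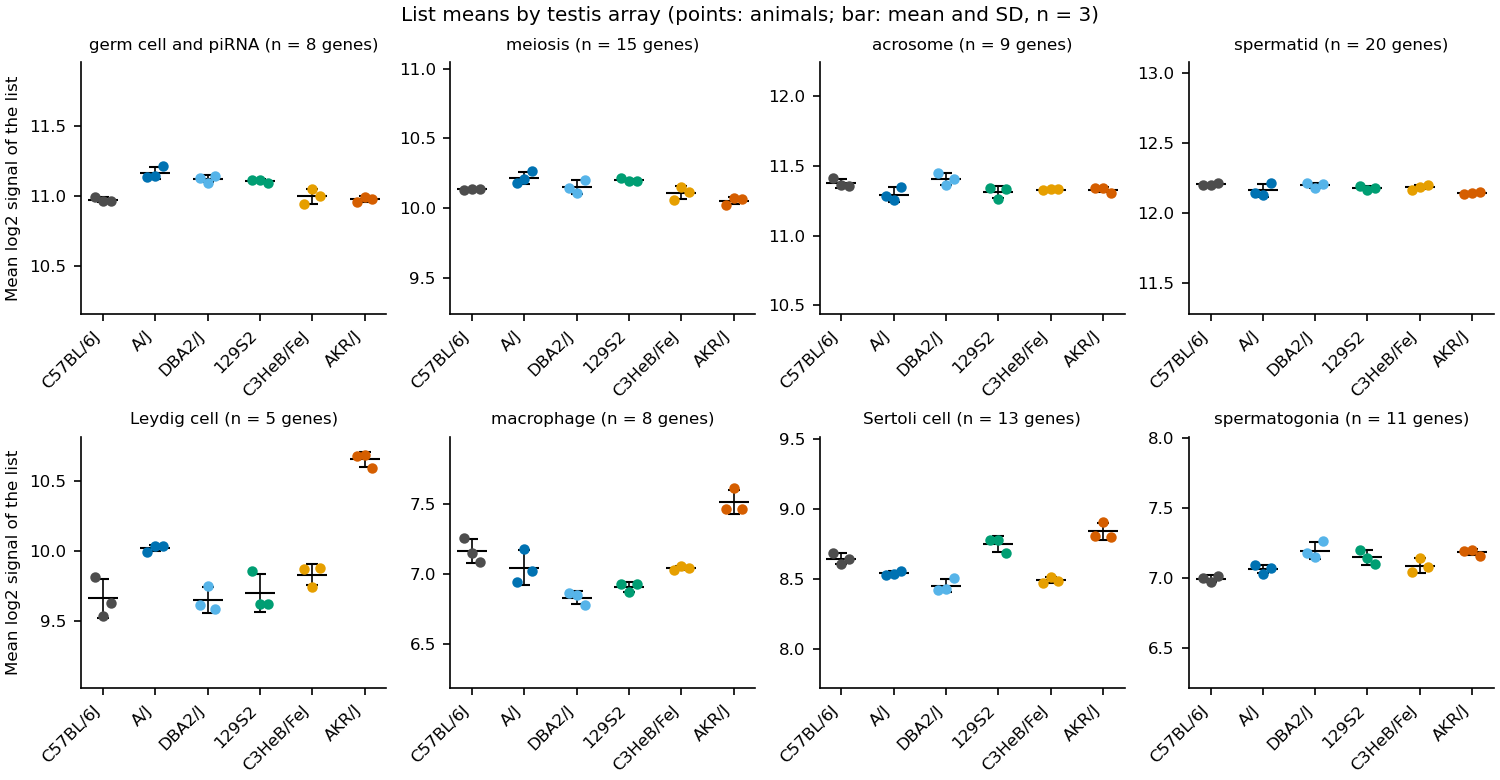
Mean log2 signal per testis array of the 4 stages (top) and of 4 marker lists (bottom), with points for animals and bars for the strain mean and SD (n = 3). All panels have the same height in log2 units. Strain means of the spermatid stage span 0.06 log2 units, and those of the Leydig cell markers 1.01, with AKR/J highest.

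Of the 52 genes, 36 had 1 single-gene probe set and 16 had more, and the additional sets show how far a strain pattern belongs to the gene. Of 26 other probe sets 8 passed when every probe set was tested, beside 33% of all probe sets. Brdt had a set with a mean testis signal of 11.34 that read 11.90 ± 0.02 (SD, n = 3) in 129S2 and 11.01 ± 0.04 in DBA2/J (range 0.89, limma adjusted p per probe set = 3.0e-10). The set used had 129S2 lowest at 9.49 ± 0.05, and the third had C57BL/6J lowest at 6.72 ± 0.14. The 3 sets thus had 3 different lowest strains.

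Akap3, an anchoring protein of the sperm tail, did not pass on the set used. Its other set, at 13.58, read 13.96 ± 0.11 in C57BL/6J and 14.01 ± 0.06 in 129S2 and 13.34 to 13.41 in the other 4 strains (range 0.67, limma adjusted p per probe set = 2.0e-08). Odf2 had sets at 13.14 and 12.54 with ranges of 0.11 and 0.09 that did not pass, against 0.60 for the set used, and AKR/J was lowest in 4 of its 5 sets. Clgn passed on all 3 sets with AKR/J lowest each time. The low 129S2 and high DBA2/J values of the set used did not recur. In the other 2 sets the DBA2/J differences from the other strains were -0.02 and -0.05 (limma adjusted p per probe set = 0.857 and 0.525), the 129S2 differences were 0.02 and -0.00056 (limma adjusted p per probe set = 0.824 and 0.996), and C57BL/6J was highest. Catsper2 was lowest in AKR/J on the set used and in A/J on a dimmer set at 6.93. Crem had a testis-bright set at 10.84 with a range of 0.15 that did not pass. Whether bases under the probes differ between strains was not tested.

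**Figure D5:**
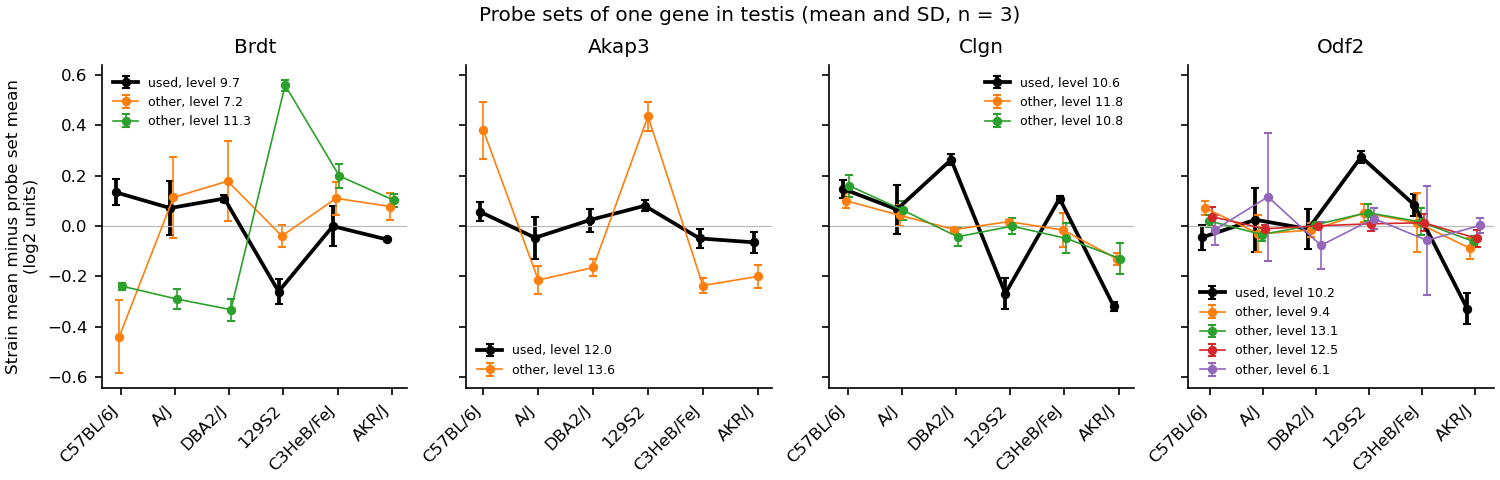
Strain means minus the mean of the probe set (log2 units) for every single-gene probe set of Brdt, Akap3, Clgn and Odf2 in testis, with SD (n = 3). Black lines are the sets used and coloured lines the others, with the mean testis signal in the key. For Brdt the 129S2 points lie at opposite ends in the used set and in the set at 11.34, and for Clgn AKR/J is lowest in all 3.

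Outside testis the same probe sets were mostly dim, and the share that passed was below the background in every tissue. It was 7 of 52 in brain (background 23.1%), 6 in heart (21%), 13 in kidney (46.1%), 8 in liver (31.6%) and 11 in lung (32.5%). Rec8 had C57BL/6J highest in brain, kidney and lung as in testis. It read 5.99 ± 0.15 (SD, n = 3) in brain against 5.13 to 5.40 in the other strains, 6.53 ± 0.07 in kidney against 5.36 to 5.62, and 7.03 ± 0.22 in lung against 5.68 to 6.11. The ranges were 0.86, 1.18 and 1.35, beside 0.44 in testis, and limma F test adjusted p-values were 8.2e-06, 3.3e-07 and 8.9e-07.

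Calr3, a calreticulin of the testis, showed a range of 0.13 in testis and 1.82 in heart. In heart it rose from 6.25 ± 0.10 in C57BL/6J to 8.08 ± 0.25 in AKR/J (limma F test adjusted p = 1.1e-07). Its probe set is of the s_at kind, which can read related transcripts. Tdrd7 in liver ranged from 7.78 ± 0.16 in A/J to 8.75 ± 0.07 in C57BL/6J (limma F test adjusted p = 6.4e-08), and Hspa2 in brain from 8.35 ± 0.10 in DBA2/J to 8.91 ± 0.05 in C57BL/6J (limma F test adjusted p = 9.3e-06). Whether these strain differences depend on the tissue was not tested. Members above the 75th percentile outside testis were Tdrd7, Odf2, Prm1 and Crem.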

How the data were processed

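RNA of testis and 5 other tissues was hybridised to 1-colour Affymetrix arrays. The authors deposited log2 probe set signals made with RMA, per the submitters' processing notes. No version of it was stated. Values were used as deposited. Of 45101 probe sets, 64 controls, 932 that name several genes and 9160 without a gene name were dropped. The remaining 34945 covered 18193 genes, and 34741 of them had a gene ID in the GRCm38.p6 table. The 18 testis arrays were fitted with a mean for each strain in R 4.3.3 with limma 3.58.1 (lmFit, eBayes), and p-values were Benjamini-Hochberg adjusted over all genes at 0.05. The code was tested on simulated data. The members and gene lists were chosen with earlier results of these data known. Every array was given for the 4 passing members per stage with the widest range and the 2 per strain with the largest called difference, and from each list of other genes the 2 passing with the widest range were named. Other features were named after their values were seen. Alternatives were the prior, a floor of 6 log2 units, centring, quantile normalization, the choice of probe set, all tissues in 1 fit, a replicate block, stage membership, a minimum range and each array left out.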

Additional observations from a re-analysis of the deposited data

How the results depend on the processing

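The 20 members that passed the F test ranged from 19 to 22 when 1 array was left out, and 7371 genes from 6627 to 7269. By stage the ranges were 5 to 6 (germ cell and piRNA), 7 to 10 (meiosis), 3 to 4 (acrosome) and 3 to 5 (spermatid). The calls for each strain against the others ranged from 6 to 10 members and 2680 to 4034 genes in C57BL/6J, 4 to 10 and 1739 to 2652 in A/J, 4 to 9 and 2022 to 3141 in DBA2/J, 5 to 9 and 2154 to 3162 in 129S2, 1 to 4 and 1290 to 1983 in C3HeB/FeJ, and 13 to 16 and 3013 to 4485 in AKR/J. The largest change of the spermatid count came without A/J animal 3.

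Under the other settings the member count was 30 (intensity trend with robust prior), 24 (floor of 6), 23 (median centring), 22 (quantile normalization), 25 (mean of probe sets), 20 (brightest set in testis) and 15 (all tissues fitted together), and 7 with a range of at least 0.5. With the trend, 8 spermatid genes passed, and calls were 15 in C57BL/6J, 14 in A/J and 6 in C3HeB/FeJ. With the floor they were 6 spermatid genes, 13 in C57BL/6J and 5 in C3HeB/FeJ. Quantile normalization and the mean of probe sets each gave 5 spermatid genes, and the latter 14 calls in C57BL/6J. The brightest set in testis gave 5 calls in C3HeB/FeJ. With all tissues fitted together, acrosome genes fell to 2 and calls to 2 in A/J, 3 in DBA2/J, 5 in 129S2 and 0 in C3HeB/FeJ. Without members that could belong to another stage, 2 acrosome genes passed. The cause of these changes was not tested.

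The C57BL/6J minus 129S2 difference of Brdt turned to -0.27 with the mean of probe sets and -0.80 with the brightest set in testis. A further 3 differences that had not passed also changed sign, Prm1 (-0.0050) and Zpbp (-0.031) with the mean and Crem (-0.0047) with the brightest set. Odf2 no longer passed with either (limma adjusted p = 0.107 and 0.311). With all tissues fitted together, Dazl, Sycp2, Sycp3, Hspa2, Acr and Adam2 lost their calls. The removal of the 3 AKR/J arrays was chosen after seeing the data.

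After removal of the strain means, 11 of 26 same-numbered pairs of testis arrays from different strains correlated above 0.1. Their median correlation was 0.072, beside -0.014 for pairs with different numbers, and what same-numbered arrays share was not tested. With the number as a replicate block 21 members passed. The 3 arrays per strain limit the precision, and males of 1 age range only were measured.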
